A study of Mus musculus with 4 samples.

Results

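Ion channel genes were read from a table of 11747 rows, and 47 of them were taken as members because their symbol began with Kcn, Scn and a digit, Cacn, or Hcn and a digit. They were 24 potassium, 7 sodium, 13 calcium and 3 hyperpolarization-activated (HCN) channel genes, auxiliary subunits and 1 noncoding RNA included. RNA was sequenced from motor neuron cultures differentiated from mouse embryonic stem cells, descendants of the A172LoxP line that carry a transgene under doxycycline control, which encodes a transcription factor. All cultures were patterned as embryoid bodies (floating aggregates) for 2 days with 0.5 µM all-trans retinoic acid and 1 µM of the Sonic hedgehog agonist purmorphamine. The Dox Positive cultures then received 2 µg/mL doxycycline for 2 to 3 days and gave libraries 2 and 8, while the Dox Negative cultures received vehicle for the same time and gave libraries 1 and 7. The 2 libraries of a group are not stated to be separate cultures, so p-values measure the spread between libraries, which may be technical, and nothing in the sources used here says how many clones of the line were used.

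Voltage-gated channels open when the membrane potential changes: sodium channels carry the upstroke of the action potential, calcium channels couple electrical activity to transmitter release and gene expression, and potassium channels set the resting potential and end each spike. HCN channels open on hyperpolarization and set pacing and rebound firing. Each pore-forming alpha subunit works with auxiliary subunits that change its trafficking and gating, and developing motor neurons switch on many of these genes as they leave the cell cycle. The rule also takes in channels that do not sense voltage, namely inward rectifiers and tandem pore leak channels.

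Values are the authors' normalized read counts, which sum to 26449555 and 26670178 in Dox Positive libraries 2 and 8, against 26725915 and 27047458 in Dox Negative libraries 1 and 7. Estimated totals were 22434755 and 30235763 reads for Dox Positive libraries 2 and 8, and 29905679 and 25190896 reads for Dox Negative libraries 1 and 7. The lowest member value corresponds to 25 estimated reads and the highest to 5350. The table starts at genes whose best-covered library holds 101 estimated reads, and a gene missing from it cannot be called absent. All 47 members passed the filter on low values, but 8 reached 101 reads in 1 group only, so that their direction is tied to the floor of the table. Cacna1e, Cacna2d3, Cacng5, Kcnj2, Kcnj11 and Kcnk10 reached it in Dox Negative libraries only, and Kcnab3 and Kcnh1 in Dox Positive libraries only. The cultures held transcripts that define motor neurons, since Mnx1, Isl1, Isl2, Lhx3 and Chat were all listed, together with abundant cell cycle genes and the basement membrane gene Col4a1, a product of primitive endoderm.

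Channel genes were mostly lower with doxycycline. Of the 47 members 7 fell and none rose in the limma test (adjusted p under 0.05), against 1.79% of all rows that fell and 0.579% that rose, 2.37% in either direction. A log2 change is a difference of log2(normalized count + 1), Dox Positive minus Dox Negative, given ± SE, and for genes of low count the added 1 draws it towards 0. The 7 were the potassium channel genes Kcnk10 and Kcnd3, the sodium channel genes Scn9a and Scn3b, the calcium channel genes Cacna1g and Cacng4, and Hcn4. Of the 39 members that reached 101 reads in both groups 6 fell and none rose, the 7 without Kcnk10. At an unadjusted p under 0.05, 22 members were lower and 0 higher, where 11.5% and 9.58% of all rows were. The median log2 change of the members was -0.29, against 0.0024 over all rows, and 39 of the 47 values lay below 0, against 49.4% of all rows. In 27 members both Dox Positive libraries lay below both Dox Negative libraries, against 26.5% of all rows, and in 2 members both lay above, against 26.7%. The 22 and the 27 include all 6 members that reached 101 reads in Dox Negative libraries only. The 2 that lay above reached it in Dox Positive libraries only. The median and the count of values below 0 include these members as well. No member passed in all 4 fits that left out a library: 3 fell without library 1, 1 without library 2, 7 without library 7 and 0 without library 8, and the sign of all 7 stayed negative. With columns 1 and 2, and columns 7 and 8, taken as pairs, which the labels do not state, 23 members were lower and 1 higher, against 15.9% and 13.9% of all rows. The 23 again include all 6 members that reached 101 reads in Dox Negative libraries only.

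**Figure D1:**
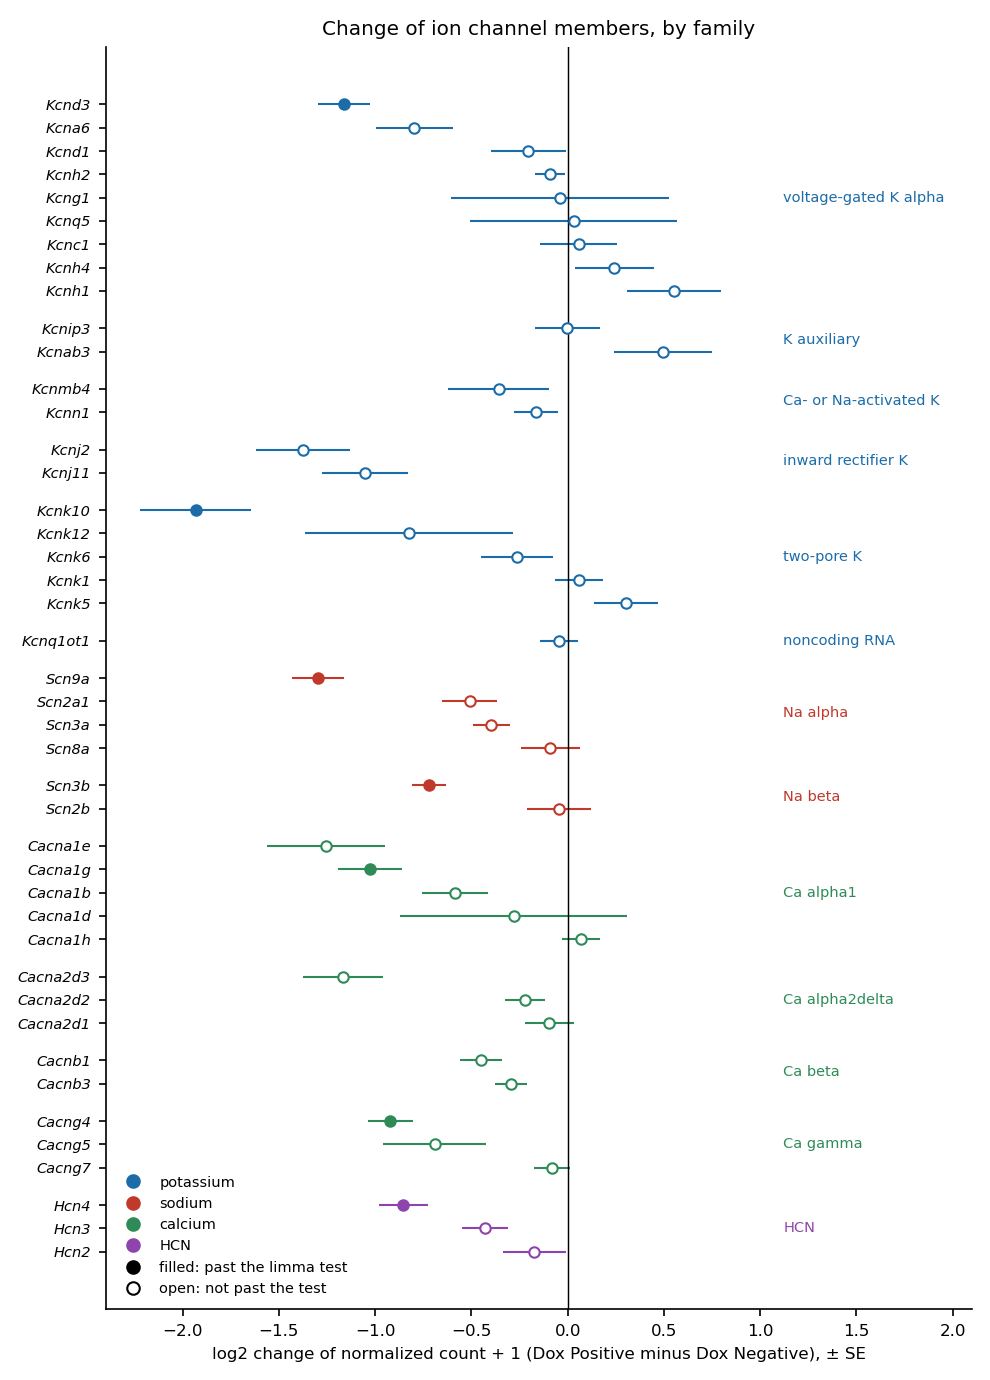
The log2 change of 43 of the 47 members is plotted with its SE, grouped by family and coloured by class, and filled points passed the limma test. Filled points appear on the left of 0 only, from Scn3b at -0.72 to Scn9a at -1.30 among genes that reached 101 reads in both groups. Kcnk10, listed through its Dox Negative values, lies at -1.93.

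**Figure D2:**
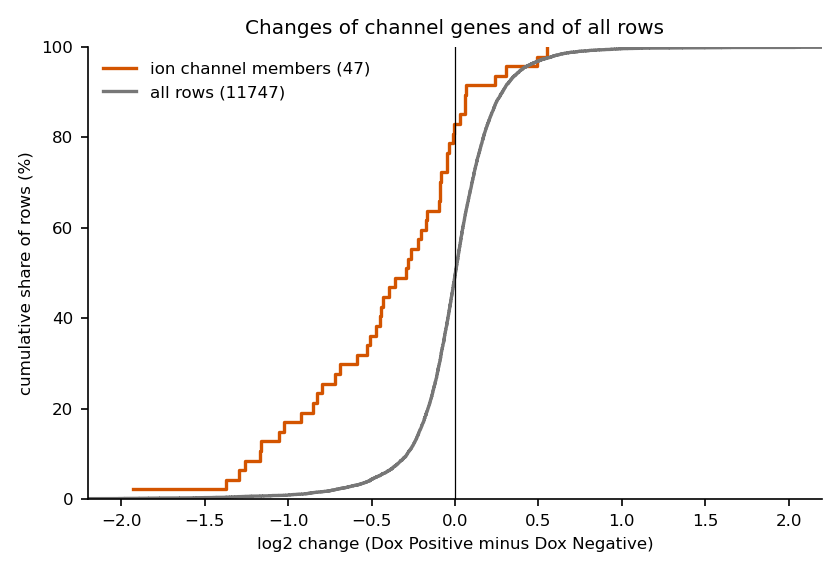
The curves give the cumulative share of rows (%) against the log2 change for the 47 members and for all 11747 rows. The member curve lies left of the other over most of its range, with medians of -0.29 and 0.0024.

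Genes shared by most neurons were lower as well. Of the 19 listed pan-neuronal genes, 14 fell and none rose, with a median of -0.83, and their summed level was 83570 to 102644 normalized counts in Dox Positive and 178357 to 202540 in Dox Negative libraries. Of 6 motor neuron transcription factor genes 4 fell, with a median of -1.45. The other 2 lay higher in both Dox Positive libraries without passing the test, among them Lhx3 at 0.55 ± 0.17. Cholinergic and effector genes of motor neurons had a median of -1.34, with 8 of 10 listed lower past the test and Calca higher. Of 15 cell cycle genes none passed the test, all 15 had values above 0, and their summed level was 90915 to 95324 in Dox Positive and 74714 to 83759 in Dox Negative libraries. Of 15 listed spinal progenitor genes, Irx3 fell and 12 had values above 0. In bulk RNA fewer neurons and less channel RNA per neuron cannot be told apart, and the part of these marker genes in the channel values was not tested. The summed level of the 47 members was 23328 to 23830 in Dox Positive and 27583 to 30865 in Dox Negative libraries.

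Promoter windows of RefSeq on GRCm38.p6, from 250 bases before to 50 after an annotated start, were found for 32 of the 47 members, with 43 windows in all, and for 4 of the 7 genes that fell. They are shown for a potassium, a sodium and an HCN channel gene whose level fell, chosen because they hold the motifs marked. The window of Kcnk10 is chr12:98578164-98578463 on the minus strand (1 of 2 windows), that of Scn9a is chr2:66634913-66635212 on the minus strand, and that of Hcn4 is chr9:58822699-58822998 on the plus strand. Capitals mark TAAT, the core letters bound by many homeodomain factors, and GGGCGG, the GC box, on either strand.
Kcnk10: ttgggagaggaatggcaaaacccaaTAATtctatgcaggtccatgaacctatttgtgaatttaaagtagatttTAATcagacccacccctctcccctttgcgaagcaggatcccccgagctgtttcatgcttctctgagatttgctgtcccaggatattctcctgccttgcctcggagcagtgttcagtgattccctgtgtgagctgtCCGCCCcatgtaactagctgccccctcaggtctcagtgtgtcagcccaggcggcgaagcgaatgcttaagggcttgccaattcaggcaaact
Scn9a: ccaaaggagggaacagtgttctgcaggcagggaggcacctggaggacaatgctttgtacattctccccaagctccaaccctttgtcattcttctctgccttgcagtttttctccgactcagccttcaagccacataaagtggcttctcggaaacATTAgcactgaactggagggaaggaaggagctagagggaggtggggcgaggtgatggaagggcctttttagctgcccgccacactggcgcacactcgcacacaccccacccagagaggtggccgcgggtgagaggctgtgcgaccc
Hcn4: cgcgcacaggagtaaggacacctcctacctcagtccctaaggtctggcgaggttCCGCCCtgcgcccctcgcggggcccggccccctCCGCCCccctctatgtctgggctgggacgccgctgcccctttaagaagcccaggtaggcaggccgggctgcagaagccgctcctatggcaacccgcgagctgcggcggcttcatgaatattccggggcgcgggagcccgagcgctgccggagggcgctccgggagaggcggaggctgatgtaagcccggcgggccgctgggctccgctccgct
The Kcnk10 window held TAAT in 2 places and the GC box in 1, the Scn9a window held TAAT in 1, and the Hcn4 window held the GC box in 2. The second window of Kcnk10 and the window of Kcnd3, not printed, held 0 of either. Over all windows of the members, TAAT was found in 39.5% and the GC box in 55.8%, against 58.0% and 35.7% of the 32851 windows of the whole RefSeq table. The longer TAATTA, which contains TAAT, was in 0 of the 43 member windows and in 5.29% of all windows, and TTCAGCACC, the left part of the RE1 element, in 0 and in 0.371%. The TATA box letters TATAAA were in 4.65% and 13.6%. The median GC content was 63.7% in member windows and 52.7% over all windows. These are matches of letters on both strands and no evidence of binding.

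In the family of voltage-gated potassium channel genes, which encode the pores that repolarize the membrane, 1 of 12 fell. Kcnd3, a pore of the transient A-type current, stood at 257 and 214 normalized counts in Dox Positive libraries 2 and 8, against 508 and 544 in Dox Negative libraries 1 and 7. The groups were far apart, and the log2 change was -1.16 ± 0.14 (limma, adjusted p = 0.0234), a level 44.8% of that without doxycycline. Its call was lost without library 8 (limma, adjusted p = 0.0911) and stood without any other single library.

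No other pore of this family passed the test, and their values lay on both sides of 0. Kcna6, a delayed rectifier, had 125 and 112 in Dox Positive and 236 and 180 in Dox Negative libraries, a change of -0.80 ± 0.20 (limma, adjusted p = 0.106). It was lower in each Dox Positive library than in either Dox Negative one. Kcnc1, a channel of fast-spiking neurons, had 215 and 169 in Dox Positive and 206 and 163 in Dox Negative libraries, so the groups overlapped, and its change was 0.06 ± 0.20. Kcnd1, the other listed A-type pore, had a change of -0.20 ± 0.19.

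The ether-à-go-go family, part of these pores, had no member past the test. Kcnh1 had 96.7 and 109 normalized counts in Dox Positive and 77.8 and 62.3 in Dox Negative libraries. It lay higher in both Dox Positive libraries, with a change of 0.55 ± 0.24 that missed the threshold (limma, adjusted p = 0.269). Of its libraries, only Dox Positive library 8 reached the floor of 101 reads. Kcnh2, the pore of the rapid delayed rectifier of the heart, had 2472 and 2543 in Dox Positive and 2810 and 2540 in Dox Negative libraries, a change of -0.09 ± 0.08, and its groups overlapped. Kcnh4 had a change of 0.24 ± 0.21.

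Auxiliary and calcium-activated potassium channel genes did not pass the test. Kcnab3, a beta subunit of voltage-gated channels, had 96.7 and 135 in Dox Positive and 75.1 and 87.0 in Dox Negative libraries, a change of 0.49 ± 0.26 (limma, adjusted p = 0.333), and with Kcnh1 it was 1 of the 2 members higher in both Dox Positive libraries, the group through which both are listed. Kcnip3, a calcium sensor that binds A-type pores, had a change of -0.0031 ± 0.17. Kcnn1, a small-conductance channel behind the afterhyperpolarization, had a change of -0.16 ± 0.12, and Kcnmb4, the neuronal partner of the large-conductance channel, one of -0.36 ± 0.26.

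Of 5 tandem pore leak channel genes 1 fell. Kcnk10, which encodes the TREK-type channel opened by stretch, warmth and lipids, had 35.4 and 30.0 normalized counts in Dox Positive libraries 2 and 8, against 145 and 112 in Dox Negative libraries 1 and 7. These correspond to 30 and 34 estimated reads in Dox Positive and 162 and 104 in Dox Negative libraries, so the gene is in the table through its Dox Negative values, and the size of its fall is not ranked against other members. The groups did not overlap and the change was -1.93 ± 0.29 (limma, adjusted p = 0.0389), a level 25.5% of that without doxycycline, but the call was lost without any 1 of the 4 libraries, with adjusted p in limma between 0.0574 and 0.221. Its promoter window is the first of those printed above.

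None of the other tandem pore genes passed the test. Kcnk5, an alkaline-activated leak channel, had 540 and 640 in Dox Positive and 414 and 547 in Dox Negative libraries, and its change of 0.30 ± 0.17 came with overlapping groups. Kcnk1 had a change of 0.06 ± 0.12 and Kcnk6 one of -0.26 ± 0.19. The log2 ratio of Kcnk10 to Kcnk5 within a library was -3.89 and -4.37 in Dox Positive and -1.51 and -2.28 in Dox Negative libraries, which do not overlap (exact permutation test, two-sided, p = 0.333, the smallest that 2 against 2 libraries can give). The pair was chosen after the values were seen, and Kcnk10 is listed through its Dox Negative values. The ratio therefore adds no support to the call.

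Both listed inward rectifiers, which hold the membrane near the potassium equilibrium, had values below -1, did not pass, and reached the floor of 101 reads in Dox Negative libraries only. Kcnj2, the strong inward rectifier, had 51.9 and 43.2 in Dox Positive and 126 and 122 in Dox Negative libraries, a change of -1.37 ± 0.24 (limma, adjusted p = 0.0545). Kcnj11, the pore of the ATP-sensitive channel, had 57.8 and 59.1 in Dox Positive and 118 and 127 in Dox Negative libraries, a change of -1.05 ± 0.22 (limma, adjusted p = 0.0780). In both genes the values within a group were close together, and the groups were more than 2-fold apart. Kcnq1ot1, a long noncoding RNA antisense to Kcnq1 and not a channel, had a change of -0.05 ± 0.10. Whether reads were counted by strand is not stated, so its reads and those of Kcnq1 cannot be told apart.

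**Figure D3:**
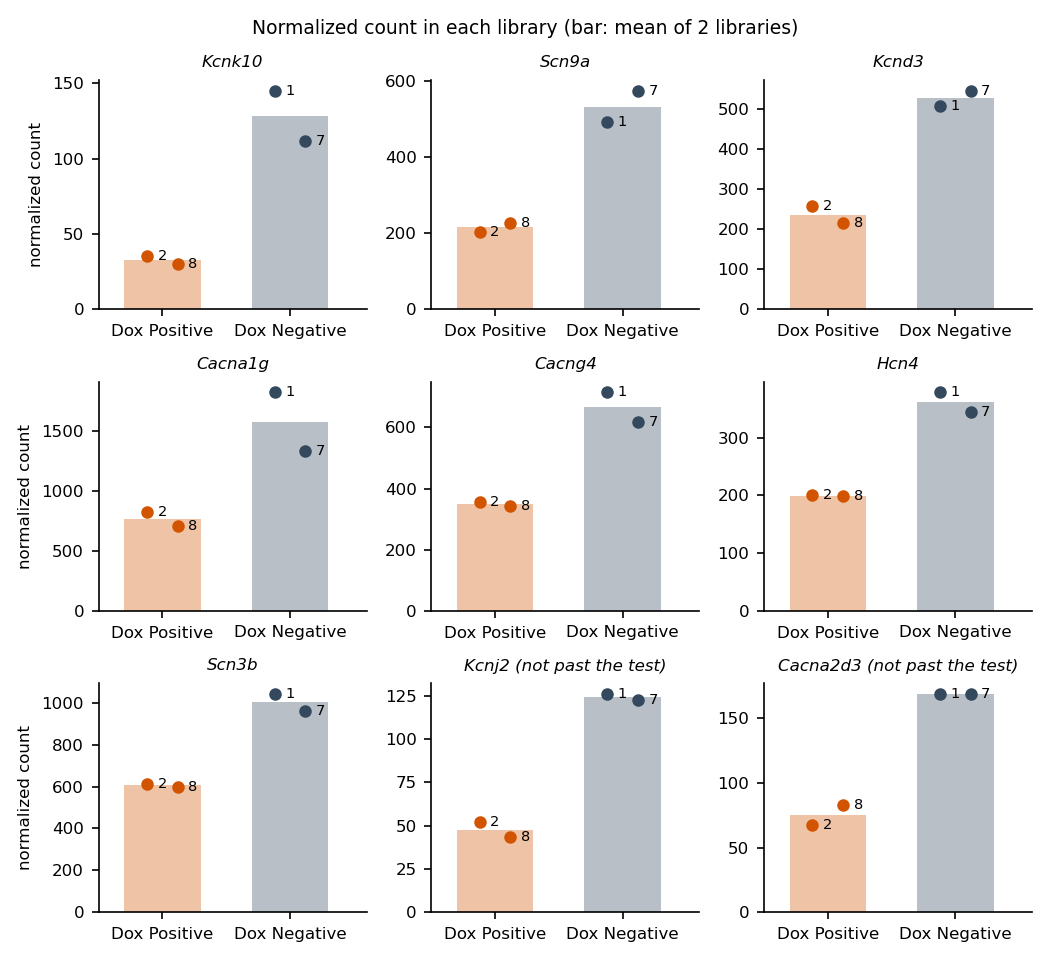
Normalized counts in each library (points with library number) and their group mean (bars) are plotted for the 7 members that passed the test and for Kcnj2 and Cacna2d3, the nearest outside it. In all 9 panels both Dox Positive points lie below both Dox Negative points, an order that the choice of panels by the test favours. Kcnk10, Kcnj2 and Cacna2d3 are listed through their Dox Negative values.

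Sodium channel genes had values below 0 in all 7 members, and 2 fell. Scn9a, the alpha subunit best known from pain-sensing and sympathetic neurons, had 204 and 228 normalized counts in Dox Positive libraries, against 492 and 574 in Dox Negative libraries. The groups did not overlap, and the change was -1.30 ± 0.14 (limma, adjusted p = 0.0207), the smallest adjusted p of any member. Leaving out library 2 gave an adjusted p of 0.0531 in limma and leaving out library 8 gave 0.0612, so the call was lost in both. The sensory neuron marker Pou4f1 had 562 and 268 in Dox Positive and 1413 and 501 in Dox Negative libraries, with overlapping groups, and the part of sensory neuron markers in the Scn9a values was not tested. Scn3b, a beta subunit that modifies gating and surface expression of the pore, had 614 and 598 in Dox Positive and 1041 and 960 in Dox Negative libraries. Its change was -0.72 ± 0.09 (limma, adjusted p = 0.0264), the smallest change among the 7 that fell, and the call was lost without library 1, 2 or 8 (limma, adjusted p between 0.0686 and 0.129).

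The other alpha subunits had values nearer 0 and did not pass. Scn3a, the main alpha subunit of embryonic neurons, had 747 and 679 in Dox Positive and 979 and 899 in Dox Negative libraries, with a change of -0.40 ± 0.10 (limma, adjusted p = 0.102). Scn2a1, the subunit of early axons (now Scn2a), had a change of -0.51 ± 0.14 (limma, adjusted p = 0.133). Both were lower in each Dox Positive library than in either Dox Negative one. Scn8a, the subunit of mature nodes of Ranvier, had 862 and 813 in Dox Positive and 1038 and 766 in Dox Negative libraries, so the groups overlapped, with a change of -0.09 ± 0.15.

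Scn9a belongs to a cluster of sodium channel genes in which Scn3a lies next to Scn2a, and Scn1a next to Scn9a. Within each library, the log2 ratio of Scn9a to Scn3a was -1.87 and -1.57 in Dox Positive and -0.99 and -0.64 in Dox Negative libraries. The ratio of Scn9a to Scn2a1 was 0.36 and 0.53 in Dox Positive and 1.10 and 1.36 in Dox Negative libraries. Neither ratio overlapped between groups (exact permutation test, two-sided, p = 0.333 each). The pairs were chosen after the values were seen, so these ratios describe the Scn9a values again and add no support to the call. The beta subunit gene Scn2b, with a change of -0.05 ± 0.17, overlapped between groups. Scn1a was not listed.

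Of the 5 calcium channel pores 1 fell. Cacna1g, a pore of the T-type current that opens near rest and drives rebound bursts, had 819 and 709 normalized counts in Dox Positive and 1819 and 1327 in Dox Negative libraries. The change was -1.03 ± 0.16 (limma, adjusted p = 0.0455), the largest adjusted p among the 7 that fell and the member just inside the threshold. It missed the threshold in limma when library 2 was left out, with an adjusted p of 0.0851, and when library 8 was, with 0.182. Cacna1h, the second T-type pore, had 2365 and 2253 in Dox Positive and 2399 and 2023 in Dox Negative libraries, with overlapping groups and a change of 0.07 ± 0.10.

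Of the estimated reads of both T-type genes, Cacna1g held 25.7% (95% Clopper-Pearson interval 24.1 to 27.4) in library 2 and 23.9% (22.5 to 25.4) in library 8, both Dox Positive. It held 43.1% (41.7 to 44.6) in library 1 and 39.6% (37.9 to 41.4) in library 7, both Dox Negative. The intervals cover counting error only. They did not overlap between the groups, nor between Dox Negative libraries 1 and 7, so they do not measure the spread between libraries. These shares compare reads and are not corrected for transcript length.

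The remaining pores did not pass the test. Cacna1b, the N-type channel of transmitter release, had 650 and 571 in Dox Positive and 1080 and 774 in Dox Negative libraries, a change of -0.59 ± 0.17 (limma, adjusted p = 0.141), and of the fits that left out a library it passed in the 1 without library 7 (limma, adjusted p = 0.0187). Cacna1e, the R-type channel, had 47.2 and 44.1 in Dox Positive and 88.5 and 137 in Dox Negative libraries. The groups did not overlap, the change was -1.26 ± 0.31 (limma, adjusted p = 0.101), and only Dox Negative library 7 reached the floor of 101 reads.

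No alpha2delta or beta subunit of calcium channels passed the test. Cacna2d3, an alpha2delta subunit that brings channels to synapses, had 67.2 and 82.9 in Dox Positive and 169 and 169 in Dox Negative libraries. It stood just outside the threshold with a change of -1.17 ± 0.21 (limma, adjusted p = 0.0545), and reached the floor of the table in Dox Negative libraries only. Its relatives Cacna2d2 and Cacna2d1 had changes of -0.22 ± 0.11 and -0.10 ± 0.13, and Cacna2d1 overlapped between groups. The intracellular beta subunits were lower in each Dox Positive library than in either Dox Negative one, with changes of -0.45 ± 0.11 for Cacnb1 (limma, adjusted p = 0.0996) and -0.29 ± 0.08 for Cacnb3 (adjusted p = 0.131). Cacnb3 had 3762 and 3575 in Dox Positive and 4781 and 4223 in Dox Negative libraries.

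The gamma subunits listed here are known mainly as partners of AMPA receptors, whose surface delivery or gating they alter. Cacng4 had 356 and 344 normalized counts in Dox Positive and 714 and 616 in Dox Negative libraries. The change was -0.92 ± 0.12 (limma, adjusted p = 0.0270), and the call was lost without library 1, 2 or 8 (limma, adjusted p between 0.0598 and 0.125). Cacng5, its neighbour in the genome, had 116 and 76.7 in Dox Positive and 171 and 136 in Dox Negative libraries, a change of -0.69 ± 0.27 (limma, adjusted p = 0.221), and it too is listed through its Dox Negative values. Cacng7 had 670 and 715 in Dox Positive and 757 and 709 in Dox Negative libraries, with overlapping groups and a change of -0.08 ± 0.09.

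All 3 listed HCN genes were lower in each Dox Positive library than in either Dox Negative one, and 1 fell. Hcn4, the slowest of these channels and the pacemaker channel of the heart, had 200.4 and 198 normalized counts in Dox Positive and 378 and 345 in Dox Negative libraries. The change was -0.85 ± 0.13 (limma, adjusted p = 0.0395), and the call was lost without library 1, 2 or 8 (limma, adjusted p between 0.111 and 0.167). Hcn3 had 439 and 388 in Dox Positive and 593 and 522 in Dox Negative libraries, a change of -0.43 ± 0.12 (limma, adjusted p = 0.133), and Hcn2 had a change of -0.17 ± 0.16. Of the heart and skeletal muscle markers 2 were listed, Des and Actn2, at 89.1 to 137 normalized counts in Dox Positive and 71.5 to 82.7 in Dox Negative libraries, and neither passed the test.

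**Figure D4:**
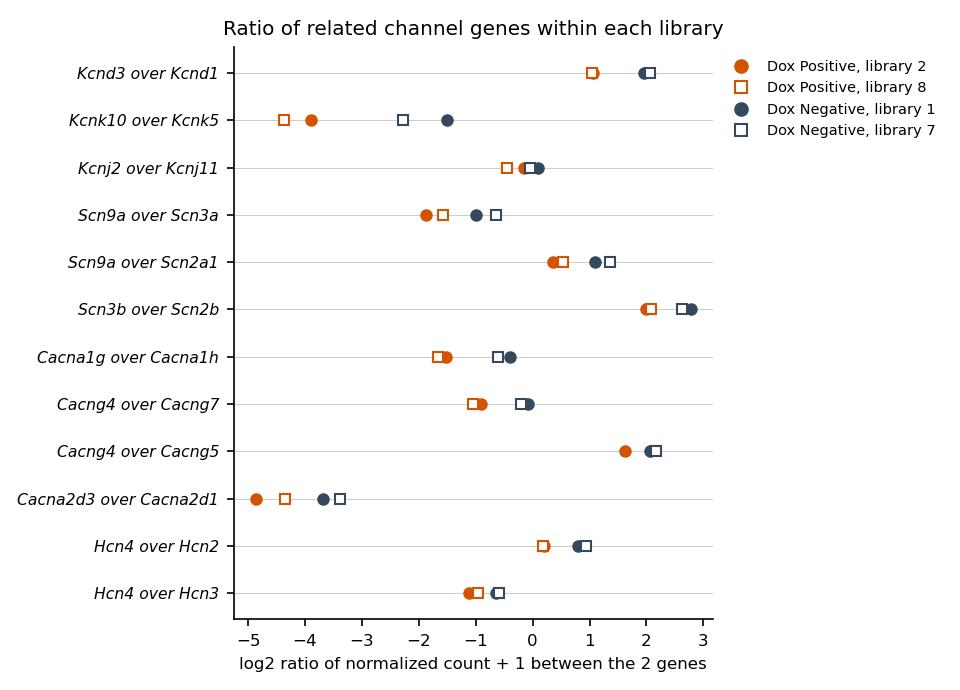
The log2 ratio of normalized count + 1 between related channel genes is plotted for each library, Dox Positive in orange and Dox Negative in dark blue. In 11 of the 12 ratios the groups do not overlap, and Cacng4 over Cacng5 is the exception. The pairs were chosen after the values were seen, and Kcnk10, Kcnj2 and Cacna2d3 are listed through their Dox Negative values.

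In all 12 ratios of related genes were compared between groups, chosen after their values were seen, mostly with a member that fell set over a relative that did not pass, so they describe those values again. The groups did not overlap in 11, each with an exact permutation p of 0.333 (0.364 adjusted over the 12), so that none could pass a threshold. The difference of the log2 ratio was -0.96 for Kcnd3 over Kcnd1, -1.09 for Cacna1g over Cacna1h, -0.84 for Cacng4 over Cacng7, -1.07 for Cacna2d3 over Cacna2d1 and -0.68 for Hcn4 over Hcn2. It was -0.68 for Scn3b over Scn2b, -0.42 for Hcn4 over Hcn3 and -0.32 for Kcnj2 over Kcnj11. In these 11 pairs the first gene was lower relative to the second in both Dox Positive libraries. Of the first genes, Kcnk10, Kcnj2 and Cacna2d3 reached 101 reads in Dox Negative libraries only, so their ratios are tied to the floor of the table.

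Levels of different genes were compared per kilobase of spliced transcript, with lengths for 46 of the 47 members. Cacnb3 was highest, at 1433 to 1508 normalized counts per kilobase in Dox Positive and 1693 to 1916 in Dox Negative libraries. Kcnh2 followed with 586 to 602 in Dox Positive and 602 to 666 in Dox Negative libraries, and Cacna2d1 with 442 to 513 in Dox Positive and 458 to 565 in Dox Negative libraries. The ranges of Kcnh2 and Cacna2d1 did not overlap within a group. At the low end Cacna1e had 2.96 to 3.16 per kilobase in Dox Positive and 5.93 to 9.21 in Dox Negative libraries, and Kcnk10 had 4.02 to 4.74 in Dox Positive and 15.0 to 19.4 in Dox Negative libraries. Per kilobase of coding sequence the order changed, with Scn3b second at a mean of 1245 over the 4 libraries, after Cacnb3 at 2816. Of the genes that fell, Kcnk10 was at the low end, while Scn3b stood at 144 to 148 per kilobase in Dox Positive and 231 to 251 in Dox Negative libraries.

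A few members differed between libraries of 1 group more than between groups. Cacna1d, an L-type calcium channel pore, had 105 and 328 normalized counts in Dox Positive libraries 2 and 8, against 156 and 327 in Dox Negative libraries 1 and 7. Kcnq5, an M-type potassium channel, had 93.1 and 229 in Dox Positive libraries 2 and 8, against 94.7 and 216 in Dox Negative libraries 1 and 7. Kcng1, a silent subunit that modifies other potassium channels, had 55.4 and 165 in Dox Positive libraries 2 and 8, against 71.5 and 135 in Dox Negative libraries 1 and 7. In each of these genes libraries 7 and 8 were both above libraries 1 and 2. Kcnk12, a tandem pore relative of Kcnk10, had 29.5 and 89.1 in Dox Positive libraries 2 and 8, against 76.9 and 110 in Dox Negative libraries 1 and 7.

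These 4 were the members for which libraries 7 and 8 differed at least 2-fold on average from 1 and 2, as did 0.792% of all rows. The differences were 1.35 for Cacna1d, 1.24 for Kcnq5, 1.23 for Kcng1 and 1.03 for Kcnk12 on the log2 scale. Their changes with doxycycline had large standard errors, 0.54 to 0.59, and none passed the test (limma, adjusted p between 0.442 and 0.982). The numbers are column names of the table, whose meaning the sources used here do not give. Of the 10 listed endoderm and mesoderm markers, 7 were also higher in both libraries 7 and 8 than in libraries 1 and 2, and the other 3 (Apoe, Cdh5 and Kdr) were not. The share of all rows in this order was not counted, so the 7 are not set apart from other genes. All 10 summed to 154113 and 368185 in the Dox Positive libraries 2 and 8, against 207148 and 405852 in the Dox Negative libraries 1 and 7. Col4a1 and Lama1 made up 94.9% to 96.3% of that sum in Dox Positive and 95.5% to 96.6% in Dox Negative libraries. Col4a1 alone had 96510 and 246997 in Dox Positive libraries 2 and 8, against 132457 and 276654 in Dox Negative libraries 1 and 7. Apoe had 1481 and 1587 in Dox Positive and 1027 and 1089 in Dox Negative libraries, and rose by 0.54 ± 0.08 on the log2 scale (limma, adjusted p = 0.0405). Cdh5 and Kdr were lower in both Dox Positive libraries and did not pass the test. The part of those markers in the 4 channel values was not tested. The pluripotency gene Pou5f1 had the opposite order, with 243 and 101 in Dox Positive libraries 2 and 8, against 307 and 141 in Dox Negative libraries 1 and 7. It is 1 of 6 listed pluripotency genes, and not all of them shared its order.

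**Figure D5:**
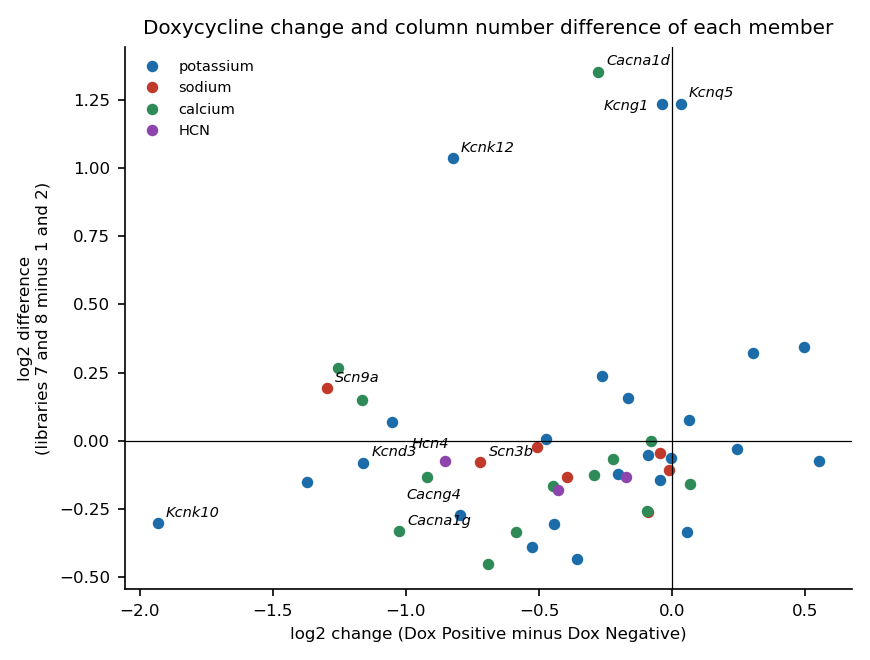
Each member is placed by its log2 change with doxycycline (horizontal) and by the log2 difference between libraries 7 and 8 and libraries 1 and 2 (vertical). Cacna1d, Kcnq5, Kcng1 and Kcnk12 lie above 1 on the vertical axis, while the 7 members that fell lie between -0.33 and 0.19.

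Partners of the channels outside the rule were read as lists, beside 1.79% of all rows that fell and 0.579% that rose. Of 10 listed sodium channel partners 2 fell, with a median of -0.37 for the list. Fgf13, an intracellular FGF that binds sodium channels, had 152 and 128 in Dox Positive and 336 and 421 in Dox Negative libraries, a change of -1.42 ± 0.18 (limma, adjusted p = 0.0264). Nfasc, the adhesion molecule of the axon initial segment, had a change of -0.87 ± 0.10 (limma, adjusted p = 0.0242). Ank3, the ankyrin that anchors sodium channels there, stood at -0.29 ± 0.07 and missed the threshold (limma, adjusted p = 0.0945). Nalcn, the sodium leak channel, had a value of -0.06 ± 0.18.

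Of 10 listed potassium channel partners 1 fell, against 1.79% of all rows. It was Dpp6, a membrane partner of the A-type pores to which Kcnd3 belongs, with 140 and 147 in Dox Positive and 283 and 310 in Dox Negative libraries and a change of -1.04 ± 0.14 (limma, adjusted p = 0.0327). The list's median was -0.09. Of 15 listed calcium channel partners 1 fell, Rimbp2, which tethers calcium channels at release sites, with 236 and 219 in Dox Positive and 590 and 545 in Dox Negative libraries and a change of -1.32 ± 0.12 (limma, adjusted p = 0.0128). The median there was -0.16.

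Channels of other kinds were also read, beside 1.79% of all rows that fell and 0.579% that rose. Of 24 listed chloride, TRP and other cation channel genes 1 fell, the lipid scramblase and channel gene Ano6 by 0.44 ± 0.07 on the log2 scale (limma, adjusted p = 0.0495), and none rose, with a median of -0.13. Of 18 listed ligand-gated channel genes 2 fell and none rose, with a median of -0.03. Chrna3, a nicotinic acetylcholine receptor subunit of autonomic neurons, had 232 and 235 in Dox Positive and 672 and 684 in Dox Negative libraries, a change of -1.53 ± 0.10 (limma, adjusted p = 0.00743). Its partner Chrnb4 stood at -0.83 ± 0.18 and missed the threshold (limma, adjusted p = 0.0788). The AMPA receptor gene Gria2, whose product Cacng4 can accompany, had 441 and 487 in Dox Positive and 902 and 1030 in Dox Negative libraries, a change of -1.05 ± 0.11 (limma, adjusted p = 0.0207).

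A further 6 rows carried no symbol in the table and were named as channel genes by their RefSeq accessions. None of them passed the test (limma). At an unadjusted p under 0.05 in limma 1 was lower, against 11.5% of all rows, and 5 had values below 0, against 49.4% of all rows. Cacna1a, the P/Q-type pore of transmitter release, had 917 and 882 in Dox Positive and 1304 and 953 in Dox Negative libraries, a change of -0.31 ± 0.15. Kcnab2, a beta subunit of potassium channels, had a change of -0.41 ± 0.13 (limma, adjusted p = 0.168), and it was the gene under 0.05 unadjusted. Kcnma1, the large-conductance pore that Kcnmb4 accompanies, had a change of -0.27 ± 0.22. Kcnd2 and Kcnn2, channels known in spinal neurons, were not listed.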

How the data were processed

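RNA sequencing values came from 1 deposited table with 4 libraries, 2 per group. Total RNA libraries were made with the Illumina TruSeq protocol, per the labels' protocols, and CASAVA, TopHat2, HTSeq, DESeq and the build mm9 are named in the submitters' processing notes without versions or roles. The deposited values are a signal per gene, normalized read counts with 2 decimals. In each column 100% of values below 3000 lay within 0.1 reads of a whole multiple of 1 step, read as the value of 1 read. Read numbers are estimates from it, and no count model was fitted. Column initials gave the group, and column numbers (1, 7, 2 and 8) match no replicate number of the labels. Of 11747 rows 11335 carry a symbol, and others were named by accession from RefSeq.

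Differences were tested over all 11747 rows with limma 3.58.1 in R 4.3.3 on log2(value + 1), using its trend option. P-values are two-sided and were adjusted by Benjamini-Hochberg (threshold 0.05), and the required row mean of 10 removed no row. Residual degrees of freedom were 2 and prior ones 3.83, and the fit was tested on simulated data. Members, lists and tests were chosen with earlier results of these data known. Full values are given for members past the test. Among the genes reported by name, at least the change ± SE is given for the smallest p and the largest change of each family. The same holds for listed genes of a fixed panel, and others are examples. Alternatives were other pseudocounts (0.5, 5), row means (none, 50), TMM and quantile scaling, no trend, robust estimation, each library left out and a replicate block. Lengths came from GENCODE M21 and promoters from RefSeq (GRCm38.p6), neither of the build mm9. The induced gene and some genes of the lists, 4 members among them, are counted in the summaries but not reported here by name. Python 3.11.15, pandas 2.3.3, scipy 1.17.1 and matplotlib 3.10.9 were used.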

Additional observations from a re-analysis of the deposited data

How the results depend on the processing

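The 7 members that fell were also the 7 called with pseudocounts of 0.5 and 5, without a filter, with a mean of at least 50 and with TMM scaling. Robust estimation called 9, adding Cacna2d3 and Kcnj2. Quantile normalization called 7, with Cacna2d3 in place of Kcnk10, and without the intensity trend 7 were called, of which 4 were among the first 7. Leaving out 1 library gave 0 to 7 members lower and 0 higher, and such fits assume that a lone library varies like the other group. The median change of the members stayed between -0.38 and -0.29 under every alternative run. A replicate block that pairs columns 1 with 2 and 7 with 8, a pairing the labels do not state, gave 23 members lower and 1 higher, among 15.9% and 13.9% of all rows, and kept all 7. The 23 include the 6 members that reached 101 reads in Dox Negative libraries only. The deviations of columns 1 and 2 from their group means correlated at 0.63 across genes, and those of columns 1 and 8 at -0.63, its mirror value. That is a hint from the data that the columns pair, not from the design. Some members changed sign when a library was left out, and those named here are examples. Near 0, Cacna2d1 ranged between -0.25 and 0.055 and Kcnq1ot1 between -0.13 and 0.036. Scn8a ranged between -0.31 and 0.13 and Kcnc1 between -0.11 and 0.23. Swings were wider in members that differed within groups. Cacna1d, at -0.28 with all libraries, ranged between -1.10 and 0.54. Kcng1 ranged between -0.82 and 0.74 and Kcnq5 between -0.61 and 0.68. With 2 libraries per group no exact test of a single gene can go below p = 0.333, and members with few reads, such as Kcnk10, have large counting error.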
